A study of Saccharomyces cerevisiae with 12 samples.

Results

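The comparison is a difference of differences: the change from log phase to 48 h of culture in 4 budding yeast strains that lack 1 intron each, pooled, minus the same change in 2 wild-type strains. It uses all 12 of the 12 libraries of the study, 8 from deletion strains and 4 from wild-type strains, each assigned by its genotype and phase label. All strains are Saccharomyces cerevisiae of the BY background, a common laboratory lineage. Deletions are carried by 2 genotypes, mms2Δi without the intron of MMS2 and ysf3Δi without the intron of YSF3, and the third is the wild type. Each genotype is represented by strains #1 and #2. Every strain was harvested in log phase and in stationary phase at 48 h, in synthetic minimal medium (SD) with histidine, leucine, uracil, lysine and 2% glucose. Total RNA was depleted of ribosomal RNA and made into ScriptSeq v2 libraries, and the deposited table counts reads over whole genes, which cannot show whether an intron is missing. The labels do not say whether strains of a genotype came from separate transformations, so p-values measure the spread between these strains.

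Budding yeast that exhausts its glucose leaves rapid growth. Genes for ribosomes and their assembly are turned down through the TORC1 and protein kinase A pathways, while genes for respiration, acetate use, storage carbohydrates and stress protection are turned up. Few yeast genes have an intron, and many of those that do encode ribosomal proteins. The study's title names the question as the effect of intron deletion on the repression of genes under starvation, and the pooled difference asks it for both deletions together.

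The introns that the deletion strains lack are shown because they are the only sequences by which the genotypes are defined. They were read from the RefSeq genome R64, the assembly also called sacCer3, on the coding strand. Capitals mark, from 5′ to 3′, the 5′ splice site, the branch site and the 3′ splice site. The MMS2 intron (chrVII:346809-346893, minus strand, 85 nt) follows a first coding exon of 11 nt, and the YSF3 intron (chrXIV:366036-366157, plus strand, 122 nt) follows one of 3 nt.
MMS2 intron: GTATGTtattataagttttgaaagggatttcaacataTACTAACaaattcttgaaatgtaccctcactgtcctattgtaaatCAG
YSF3 intron: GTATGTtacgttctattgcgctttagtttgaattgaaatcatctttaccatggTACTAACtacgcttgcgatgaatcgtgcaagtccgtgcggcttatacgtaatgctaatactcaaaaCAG
Both introns hold the full consensus at each site, and the genes they interrupt have unrelated functions: MMS2 encodes a ubiquitin-conjugating enzyme variant of DNA damage tolerance and YSF3 a small protein of SF3b, which binds the branch site.

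Library totals ran from 4871513 to 16581925 counts, with the smallest at 48 h. Wild-type strain 1 stood apart in its mating-type transcripts, and the labels do not give mating types. The summed level of the 5 alpha-cell markers was 2727 CPM (counts scaled by the library total) in wild-type strain 1 in log phase and between 22.4 and 41.7 in the other 5 strains, and that of the 7 a-cell markers was 37.2 against 1465 to 1867. At 48 h the alpha sums were 136 against 27.5 to 48.1 and the a sums 87.4 against 221 to 280. Of the a-cell markers MFA1 was at 0 in every library and MFA2 in 9 of 12, and 1 of the α-factor genes was at 0 in each of the 4 deletion libraries of log phase. Small nucleolar RNA took 2.64% and 3.21% of counts in wild-type log phase, 4.17% to 6.51% in the deletions, 4.64% and 5.77% in the wild type at 48 h and 9.38% to 11.6% in the deletions at 48 h. Levels are shares of a library, so fewer cells expressing a gene and less of its RNA per cell cannot be told apart. As wild-type strain 1 is 1 of only 2 wild-type strains, medians without it are given beside most of the gene lists. That fit leaves 1 wild-type library per phase, so counts of genes in it are not given for the phase change of the lists.

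No gene passed the test of the difference in phase change. In the quasi-likelihood test of edgeR with Benjamini-Hochberg adjustment over 6068 genes, 0 genes (0%) had an adjusted p under 0.05, and the smallest adjusted p was 0.607. The Wald test of DESeq2 called 1 gene (0.0165%). Without adjustment 488 genes (8.04%) had p under 0.05 in edgeR, 349 of them (5.75%) with a higher change in the deletions and 139 (2.29%) with a lower one. DESeq2 gave 455 (7.50%), and the fit with strain as a replicate block gave 292 and called 0. The share of higher genes among the 488 was 71.5% and depended on scaling. It was 60.3% with DESeq2 size factors, 79.2% with library totals and 53.1% with scaling factors that leave out stable RNA genes. The share also moved when a library or strain was left out. Changes of the 4 deletion strains lay above those of both wild-type strains in 696 genes (11.5%) and below both in 264 (4.35%).

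The 95% interval of a gene's difference had a median half-width of 0.53 on the log2 scale, with quartiles of 0.42 and 0.73. For 4235 genes (69.8%) the whole interval lay within 1 log2 unit of 0, which is a factor of 2 in either direction. The median difference over all genes was 0.06. In 244 genes the fitted difference was beyond 1 in size, and none of those passed.

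The phase change itself was broad in both arms. It passed in 4589 genes in the pooled deletions (75.6%), 2373 up (39.1%) and 2216 down (36.5%). In the wild type it passed in 4073 genes (67.1%), 1990 up (32.8%) and 2083 down (34.3%). These arms share no library, and 3815 genes were called in the same direction in both, which is 93.7% of the wild-type calls and 83.1% of the deletion calls. Across genes, which are not independent replicates, the fitted changes had r = 0.960 and the slope of the deletions on the wild type was 0.920. A single gene was called in opposite directions, UFO1, which encodes an F-box protein of a ubiquitin ligase: it fell by 0.35 in the wild type (adjusted p = 0.0387) and rose by 0.23 in the deletions (adjusted p = 0.0428).

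**Figure D1:**
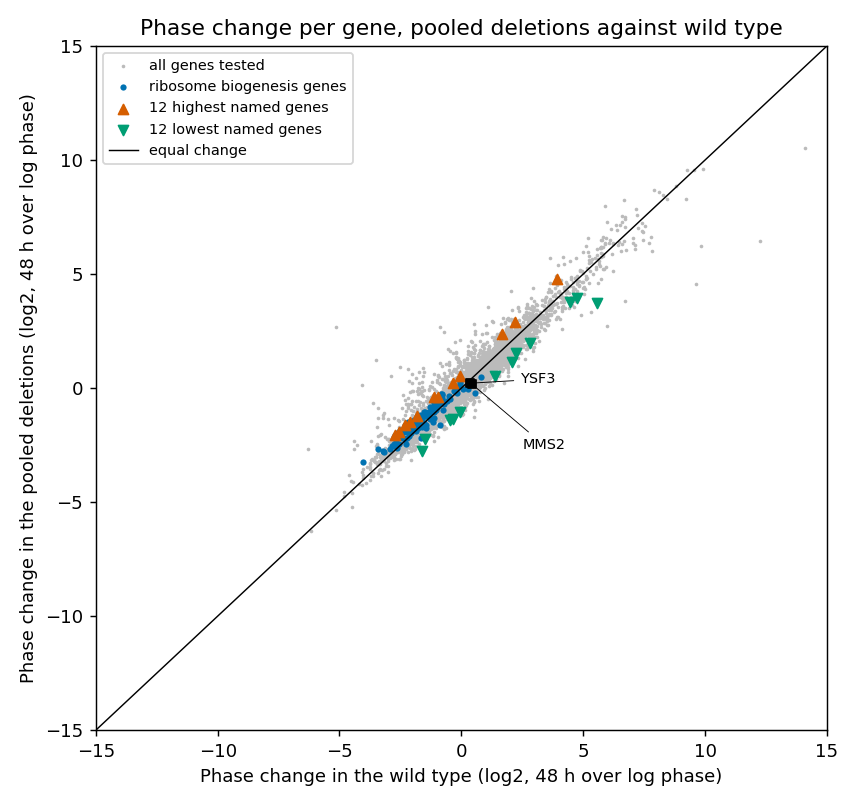
Fitted phase change (log2, 48 h over log phase) of the 6068 tested genes, with the wild type on the x axis and the pooled deletions on the y axis. The line marks equal change; most genes lie along it (r = 0.960 across genes), ribosome biogenesis genes sit slightly above it at the lower left, and MMS2 and YSF3 lie next to each other near the origin.

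The spread between strains was of the same order within and across genotypes. Correlations of the changes across genes were 0.915 to 0.973 for the 6 pairs of deletion strains, 0.885 to 0.962 for the 8 pairs of a deletion and a wild-type strain, and 0.930 for the pair of wild-type strains. The SD of the difference between strains of a pair ran from 0.36 to 0.63, from 0.43 to 0.74 and was 0.58, in the same order. The closest pair of a deletion and a wild-type strain was thus closer than the wild-type pair. The phase change of the mms2 deletion minus that of the ysf3 deletion also passed in 0 genes (0%) in edgeR, with 194 (3.20%) at an unadjusted p under 0.05. DESeq2 called POT1, the peroxisomal thiolase, at -2.74 and PHM7 at -2.07 there.

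Neither gene that lost its intron passed the test of the difference in pooled phase change. MMS2 had 249 and 266 counts in wild-type log phase and 116 and 342 at 48 h, and between 199 and 276 in the 4 deletion libraries of log phase. In CPM scaled to library size, its wild-type level went from 16.5 and 15.9 in log phase to 21.9 and 21.5 at 48 h. That of the mms2 deletion went from 22.1 and 20.8 to 20.3 and 26.4, and the ysf3 strains had 15.8 and 15.2 before and 19.5 and 17.1 after. The change per strain was 0.39 and 0.41 in the wild type, where it passed as a rise (adjusted p = 0.0454 in edgeR), against -0.12, 0.33, 0.28 and 0.16 for the deletions. All 4 deletion strains thus lay under the wild type, at a difference of -0.24 ± 0.21 (95% interval -0.70 to 0.22, adjusted p = 0.727 in edgeR), or -0.14 without mms2 strain 1 and -0.37 without mms2 strain 2. Here and below ± is an approximate error, the size of the log2 difference divided by the square root of its F statistic, with n = 4 deletion strains and 2 wild-type strains. YSF3 was counted 13 to 51 times per library, and its difference was -0.16 ± 0.40 with an interval from -1.04 to 0.73 (adjusted p = 0.911). Its changes were 0.09 and 0.43 for wild type, 0.61 and 0.68 for mms2 and -0.54 and -0.15 for ysf3 strains, so the wild type lay between the deletions. At this depth the interval of YSF3 still included a difference of about a factor of 2 downward.

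The partners of these genes were near the median of all genes. Of 14 tested DNA damage tolerance genes around MMS2, 1 (7.14%, beside 8.04% of all genes) was at an unadjusted p under 0.05. That gene was RAD6, the ubiquitin-conjugating enzyme that starts the pathway, at 0.46 ± 0.18 (adjusted p = 0.607 in edgeR), or 0.31 without wild-type strain 2. The list median was 0.07, beside 0.06 over all genes. Of 8 SF3b and SF3a genes around YSF3 none was at an unadjusted p under 0.05 and the median was 0.06; the largest SF3b subunit gene HSH155 was at 0.28 ± 0.18 (adjusted p = 0.66), with values from -0.058 without wild-type strain 2 to 0.52 without strain 1.

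The genes with the smallest unadjusted p are described next, 12 higher and 12 lower, among those with a mean of at least 10 CPM and no overlap between deletion and wild-type strains. All 24 had an adjusted p of 0.607 in edgeR, so none passed. An exact permutation test over the 15 splits of 6 strains cannot go below p = 0.0667 (two-sided), and since the genes were chosen for strains that do not overlap it adds nothing to the choice. The 12 higher genes had differences from 0.58 to 0.89 and the 12 lower ones from -1.85 to -0.66. The choice of genes fixes their direction in large part, so a direction kept when a strain is left out is no sign of stability. Without wild-type strain 1 the higher genes were at 0.51 to 0.78 and the lower ones at -2.28 to -0.75.

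SDH9, a minor isoform of the succinate dehydrogenase flavoprotein, had the highest difference of the 12. Its level was 6.68 and 6.28 CPM in the wild type in log phase and 4.10, 4.06, 4.06 and 4.20 in the deletions. At 48 h the wild-type strains had 92.1 and 103 CPM, the deletion strains 114, 133, 102 and 111. The deletions were all below the wild type in log phase, and 1 of them, at 102, lay within its range at 48 h. SDH9 rose by 3.91 in the wild type and by 4.80 in the deletions, a difference of 0.89 ± 0.17 (interval 0.51 to 1.27). NRG1, a repressor of glucose-repressed genes, was at 33.7 and 32.7 CPM against 15.7 to 18.7 in log phase and at 149 and 158 against 130 to 135 at 48 h. Its deletion strains were below the wild type at both times, further so in log phase, with a difference of 0.70 ± 0.15.

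KGD1, a subunit of the α-ketoglutarate dehydrogenase of the tricarboxylic acid cycle, was lower in the deletions in log phase and higher at 48 h. Its larger difference was at 48 h. It stood at 376 and 408 CPM in the wild type and 313 to 352 in the deletions in log phase, and at 1299 and 1206 against 1718, 2148, 1565 and 1503 at 48 h. All 4 deletion strains were above both wild-type strains at 48 h, although that difference, 0.46, had an adjusted p of 0.052 in edgeR. Its difference in phase change was 0.69 ± 0.19.

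Of the 12 higher genes 3 belong to ribosome assembly. NOP7, needed for the large ribosomal subunit, was at 1654 and 1688 CPM in wild-type log phase and at 1263, 1032, 1026 and 929 in the deletions. At 48 h the wild-type strains had 252 and 254 CPM, the deletion strains 248, 291, 241 and 244. The groups were apart in log phase and overlapped at 48 h. The change was -2.72 in the wild type and -2.05 in the deletions. The same pattern held for ENP1 of the small subunit (0.63 ± 0.17), the helicase gene DBP8 of the small subunit (0.71 ± 0.18), the eIF3 subunit gene TIF34 (0.60 ± 0.16), the tRNA methyltransferase gene NCL1 (0.61 ± 0.15) and the endosomal sorting regulator gene IST1 (0.59 ± 0.17), which has an intron. Each fell in both arms, was lower in the deletions in log phase (adjusted p between 0.0038 and 0.0061 in edgeR) and had an adjusted p of 0.69 or more at 48 h.

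The remaining higher genes are regulators. UPC2, the sterol-responsive transcription factor, went from 127 and 128 to 125 and 117 CPM in the wild type, which did not pass (adjusted p = 0.638 in edgeR), and rose by 0.52 in the deletions. RGS2, a regulator of glucose-sensing G protein signalling, fell by 1.13 in the wild type and by 0.40 in the deletions. UFO1 was at 161 and 193 CPM in wild-type log phase, 104 to 123 in the deletions, and 128 to 145 in all 6 strains at 48 h. Its difference of 0.58 ± 0.16 was 0.34 without wild-type strain 2.

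**Figure D2:**
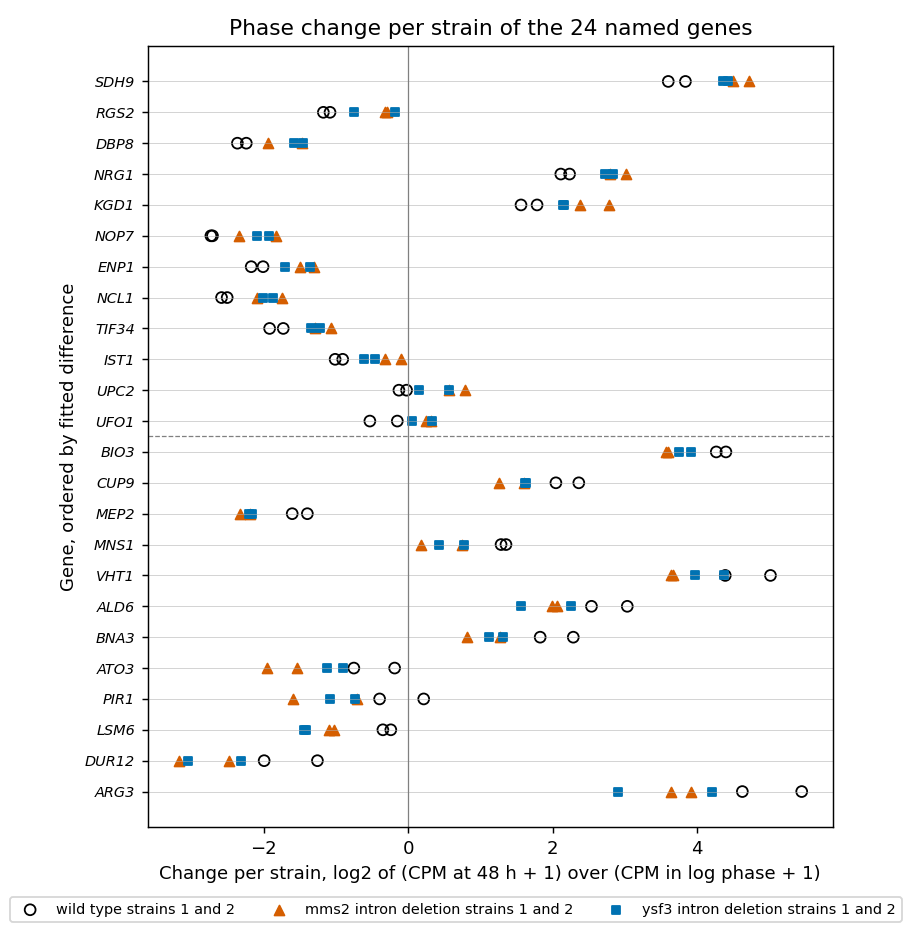
Phase change per strain, log2 of (CPM at 48 h + 1) over (CPM in log phase + 1), for the 24 named genes, ordered by fitted difference; circles are the 2 wild-type strains, triangles the mms2 deletion and squares the ysf3 deletion strains. In every row the 4 deletion strains lie on 1 side of both circles, because the genes were chosen for that, and the distance is small beside the change itself for SDH9, BIO3 and VHT1.

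BNA3 was the lowest by p and the gene called by DESeq2. It encodes a kynurenine aminotransferase. Its level in log phase was 132 and 112 CPM for wild type against 196, 221, 224 and 218 for the deletions, and at 48 h it was 469 and 551 against 476, 391, 484 and 543. The deletions were above the wild type in log phase and overlapped with it at 48 h. BNA3 rose by 2.07 in the wild type and by 1.14 in the deletions, a difference of -0.93 ± 0.19 (interval -1.34 to -0.52, adjusted p = 0.607 in edgeR). DESeq2 gave -0.96 with an adjusted p of 0.0216, and over all 28 alternatives the adjusted p ran from 0.0216 to 1.

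ARG3, the ornithine carbamoyltransferase of arginine synthesis, had the lowest difference, at -1.85 ± 0.47. It was nearly silent in wild-type log phase, at 2.51 and 2.15 CPM, and higher in the deletions at 11.5, 8.50, 14.5 and 5.69. At 48 h it reached 85.6 and 136 CPM in the wild type and 115 to 155 in the deletions. ALD6, the cytosolic aldehyde dehydrogenase that makes acetate, was at 90.2 and 88.9 CPM against 185.5 to 291 in log phase and at 528 and 734 against 773 to 1031 at 48 h. Its deletion strains were above the wild type at both times, and it rose by 2.82 in the wild type and 1.97 in the deletions.

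The lower 12 held BIO3 and VHT1, both of biotin metabolism, and biotin genes were not examined as a list. BIO3, an enzyme of biotin synthesis, rose by 4.45 in the wild type and 3.79 in the deletions, and VHT1, the biotin transporter, by 4.76 and 3.93. VHT1 was at 30.2 and 26.3 CPM in wild-type log phase and 40.3 to 54.1 in the deletions, and at 48 h at 651 and 880 against 581 to 863, so its groups overlapped at 48 h. The difference of VHT1, -0.83 ± 0.22, was -0.55 without wild-type strain 2. CUP9, a repressor of peptide import, and MNS1, an α-mannosidase of the endoplasmic reticulum, also rose less in the deletions, with differences of -0.70 ± 0.17 and -0.83 ± 0.24.

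The lower 12 also held genes of nitrogen use. DUR12 (the DUR1,2 gene, urea amidolyase) was at 3228 and 2518 CPM in wild-type log phase and 3770.5, 3872, 3611 and 4699 in the deletions, and at 48 h at 810.1 and 1054 against 678, 428, 725 and 567. All 4 deletion strains were above the wild type in log phase and below it at 48 h, and neither difference passed alone (adjusted p of 0.125 and 0.0829 in edgeR). The difference in phase change was -1.11 ± 0.32. The ammonium permease gene MEP2 had the same crossing, with 1557 and 1473 against 1848 to 2106 CPM in log phase, 511 and 559 against 367 to 459 at 48 h, and a difference of -0.72 ± 0.19. ATO3, a transporter gene of the Ato family, was at -0.96 ± 0.27.

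LSM6, a member of the Lsm ring that binds U6 RNA and decaying mRNA, and the cell wall gene PIR1 completed the 12. The phase change of LSM6 missed the threshold in wild-type strains (-0.35, adjusted p = 0.164) and fell by 1.36 in the deletions, from 16.6 to 20.4 CPM to between 5.81 and 8.58, while the wild type went from 8.47 and 7.24 to 6.43 and 5.98. PIR1 was at 61.0 and 52.7 CPM in wild-type log phase and 137 to 199 in the deletions, with a difference of -0.98 ± 0.27.

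**Figure D3:**
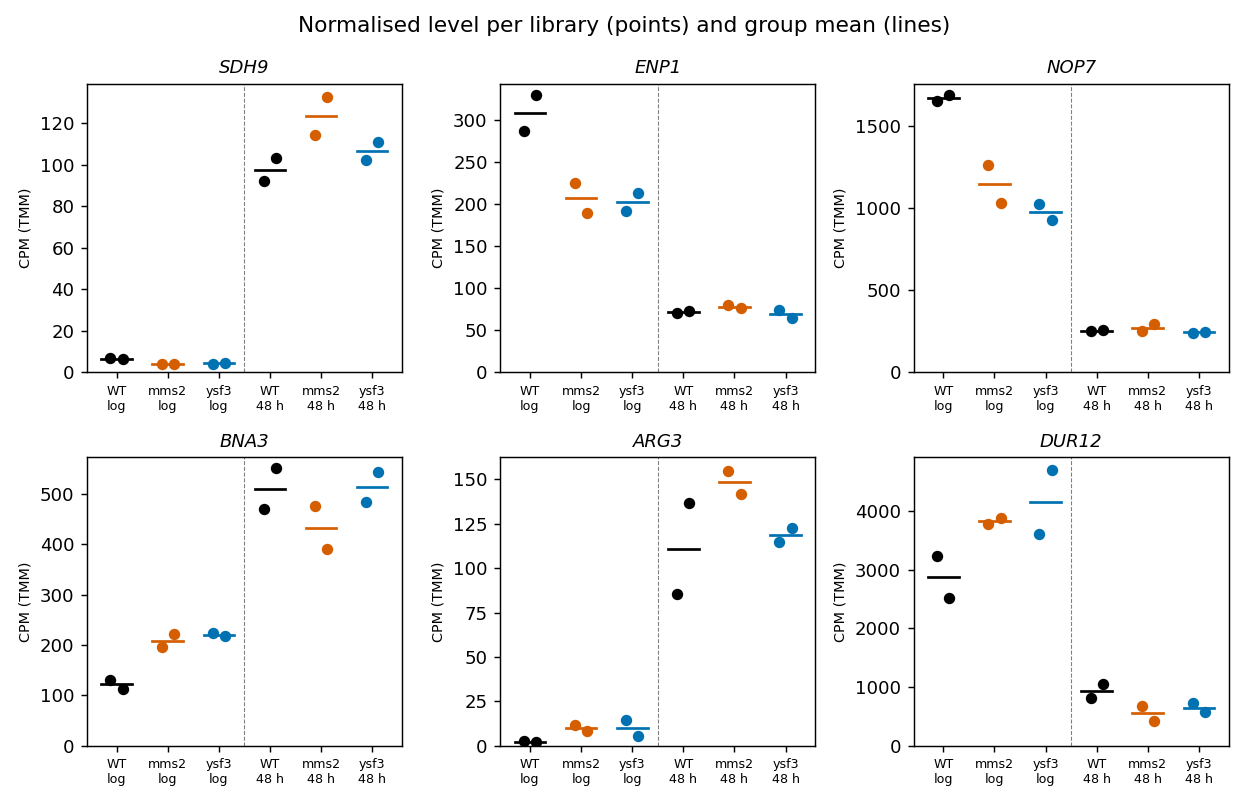
Level (TMM-scaled CPM) of 6 of the named genes in each of the 12 libraries; points are libraries, lines are group means of 2 strains, and the dashed line parts log phase from 48 h. For ENP1, NOP7, BNA3 and ARG3 the wild type stands apart from the deletions in log phase and overlaps with them at 48 h, as it does for SDH9 with 1 deletion strain at 48 h, while DUR12 is apart at both times in opposite directions.

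More of the 24 genes passed between deletions and wild type in log phase than at 48 h. Of the 12 higher genes 10 were lower in the deletions than in the wild type in log phase and of the 12 lower genes 10 were higher, each past the threshold, while at 48 h 0 of the 24 passed. Over all genes 2255 (37.2%) passed in log phase, 1082 higher (17.8%) and 1173 lower (19.3%), and 668 (11.0%) at 48 h, 534 higher (8.80%) and 134 lower (2.21%). The size of the log-phase difference was larger than that at 48 h in 81.4% of the 488 genes with an unadjusted p under 0.05 and in 66.6% of all genes tested. The 24 and the 488 genes were chosen by the difference in phase change, which is the 48 h difference minus the log-phase difference. Their log-phase direction is therefore largely fixed by the choice, and these counts do not locate the difference in log phase. The call counts within a phase changed with the strains in the fit. Each group of genotype and phase holds 2 libraries, so leaving 1 out also lowers the power of the test. The counts therefore cannot show that 1 strain carries a difference. In log phase 57 genes were called without the log-phase library of wild-type strain 2, 231 without that strain in both phases and 1329 without mms2 strain 2. At 48 h the count was 0 without wild-type strain 1, 76 without mms2 strain 2, 168 without ysf3 strain 1 and 198 without ysf3 strain 2.

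Ribosome biogenesis genes fell in both arms, with the larger fitted fall mostly in the wild type. They encode the enzymes and scaffolds that process ribosomal RNA and build both subunits in the nucleolus. Of 137 tested genes 123 fell in the wild type and 124 in the deletions, and 0 rose in either. In 41 of the 137 (29.9%, beside 5.75% of all genes) the difference in phase change was higher at an unadjusted p under 0.05, and in 0 it was lower. The list median of the difference was 0.30, beside 0.06 over all genes, with 120 genes above 0 and 57 (41.6%, beside 11.5%) without overlap between strains. None passed adjustment.

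The list medians per strain separated the groups. The wild-type medians were -1.63 and -1.77, those of mms2 strains -1.51 and -1.41 and those of ysf3 strains -1.31 and -1.46, so the groups did not overlap. In log phase 73 genes (53.3%, beside 19.3%) were lower in the deletions and 10 (7.3%, beside 17.8%) higher, with a median of -0.47. At 48 h 3 (2.19%, beside 2.21%) were lower and 2 (1.46%, beside 8.80%) higher, with a median of -0.13. Without wild-type strain 1 the median difference in phase change was 0.38. The median of the ribosome biogenesis genes over the alternatives ran from 0.17 to 0.38. With strain as a replicate block 22 of the 137 genes were higher at an unadjusted p under 0.05, beside 190 of all genes tested. In the full fit these counts were 41 and 349, so both were smaller with the block. A fit without a library or strain leaves 1 library in a group, so counts of genes in those fits are not given for this list. The list was written with earlier results of these data known.

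Ribosome biogenesis genes are known to share 2 promoter elements, PAC and RRPE. The windows of the 3 named members are shown because many genes of the list, though not all, hold these letters. Each covers 200 bases, from 300 to 101 bases before the start codon, read from RefSeq R64 on the coding strand, and capitals mark matches to the PAC core GATGAG and the RRPE core AAAATTT on either strand, which overlap in places. DBP8 lies at chrVIII:441881-442080 (plus strand), ENP1 at chrII:714556-714755 (minus strand) and NOP7 at chrVII:695117-695316 (plus strand).
DBP8: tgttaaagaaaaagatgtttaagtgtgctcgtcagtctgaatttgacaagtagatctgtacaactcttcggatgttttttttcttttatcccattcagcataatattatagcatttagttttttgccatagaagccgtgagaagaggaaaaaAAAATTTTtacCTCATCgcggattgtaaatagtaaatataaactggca
ENP1: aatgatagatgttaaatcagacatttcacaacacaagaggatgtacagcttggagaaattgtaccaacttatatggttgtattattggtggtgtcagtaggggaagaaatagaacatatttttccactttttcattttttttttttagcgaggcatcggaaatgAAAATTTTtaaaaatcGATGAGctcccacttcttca
NOP7: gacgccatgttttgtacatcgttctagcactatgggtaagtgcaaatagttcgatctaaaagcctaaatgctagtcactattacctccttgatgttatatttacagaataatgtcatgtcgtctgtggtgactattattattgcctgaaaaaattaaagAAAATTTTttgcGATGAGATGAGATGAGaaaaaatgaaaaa
In each window the cores sit next to each other. GATGAG was found in 62.0% of the 137 windows of the list and in 13.6% of the windows of 5631 tested coding genes, AAAATTT in 83.2% and 19.6%, and both in 57.7% and 5.03%. Of the 41 genes at an unadjusted p under 0.05, 61.0% held both, and of the other 96, 56.2%.

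Outside the list 204 tested genes held both cores. They had a median difference of 0.11, with 17 higher (8.33%) and 2 lower at an unadjusted p under 0.05. The 79 list members with both cores had a median of 0.29, with 25 higher (31.6%), and the 5348 genes without both cores had a median of 0.04, with 256 higher (4.79%). A match of letters is a description and not a bound site.

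Cytosolic ribosomal protein genes, the largest group of spliced genes, fell in both arms. Of 137 tested genes 134 fell in the wild type and 136 in the deletions, with medians of -2.67 and -2.66. The median difference was 0.02 and 3 genes (2.19%, beside 5.75% of all genes) were higher at an unadjusted p under 0.05, with 0 lower. Split by annotation, the 90 genes with an intron had a median of 0.04 and the 47 without an intron -0.10. RPL37B, a large-subunit gene with an intron, was at 386 and 394 CPM in wild-type log phase, 278, 298, 243 and 185 in the deletions and 35.1 to 76.2 in all strains at 48 h, with a difference of 0.50 ± 0.22 (adjusted p = 0.609). RPL11B was at 0.44 ± 0.15 (adjusted p = 0.607), and its reads could be shared with a near-identical copy.

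The ribosomal protein median turned with the wild-type strain used. Strain medians of the fall were -2.98 and -2.26 for wild type against -2.66, -2.29, -2.93 and -2.61 for the deletions, so all 4 deletion values lay between those of the wild-type strains. Without wild-type strain 1 the median difference was -0.43, and over the alternatives it ran from -0.43 to 0.34. In both phases the level itself was higher in the deletions: 79 genes (57.7%, beside 17.8% of all genes) passed upward in log phase and 10 (7.3%, beside 19.3%) downward. At 48 h 64 (46.7%, beside 8.80%) passed upward and 0 downward, and without wild-type strain 1 no gene of any kind passed at 48 h.

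Intron-containing genes outside the ribosome also stood at the centre. Of 168 tested genes the median difference was 0.03, with 5 higher (2.98%) and 2 lower (1.19%) at an unadjusted p under 0.05, shares under those of all genes. Without wild-type strain 1 the median was -0.09. Of 87 spliceosome protein genes 3 were higher (3.45%, beside 5.75% of all genes) and 2 lower (2.3%, beside 2.29%) at an unadjusted p under 0.05. The list median was 0.14 (0.27 without wild-type strain 1), and LSM6, described above, was among the lower.

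Other parts of the translation apparatus lay between. The 25 subunit genes of RNA polymerases I and III, which make ribosomal and transfer RNA, had a median of 0.18. Among them 3 were higher (12%, beside 5.75% of all genes) and 0 lower at an unadjusted p under 0.05. RPC40, shared by both enzymes, went from 554 and 556 CPM to 106 and 104 in the wild type and from 435, 385, 376 and 334 to 104, 130, 98.2 and 95.8 in the deletions, a difference of 0.56 ± 0.17 (adjusted p = 0.607). The 38 translation factor genes had a median of 0.14 with 4 higher (10.5%, beside 5.75%) and 1 lower (2.63%, beside 2.29%). SUI1, the initiation factor that guards start codon choice, was the highest of these at 0.76 ± 0.22 and HCR1, an eIF3-associated factor, the lower one at -0.67 ± 0.23. The medians were 0.04 and -0.04 without wild-type strain 1.

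Mitochondrial ribosomal protein genes had a median of 0.24, with 8 of 72 higher (11.1%, beside 5.75% of all genes) and 1 lower (1.39%, beside 2.29%). The median was the same without wild-type strain 1. MRPL27 of the large subunit was at 18.7 and 23.3 CPM in wild-type log phase and 13.7 to 15.8 in the deletions, and at 14.4 and 14.5 against 13.7 to 19.6 at 48 h. It fell by 0.54 in the wild type, did not pass in the deletions (0.14, adjusted p = 0.31) and differed by 0.69 ± 0.21 (adjusted p = 0.607). MRP7 and MRPL40 were at 0.60 ± 0.19 and 0.59 ± 0.19, and MRP7 was at 0.34 without the log-phase library of wild-type strain 2 and 0.24 without that strain.

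**Figure D4:**
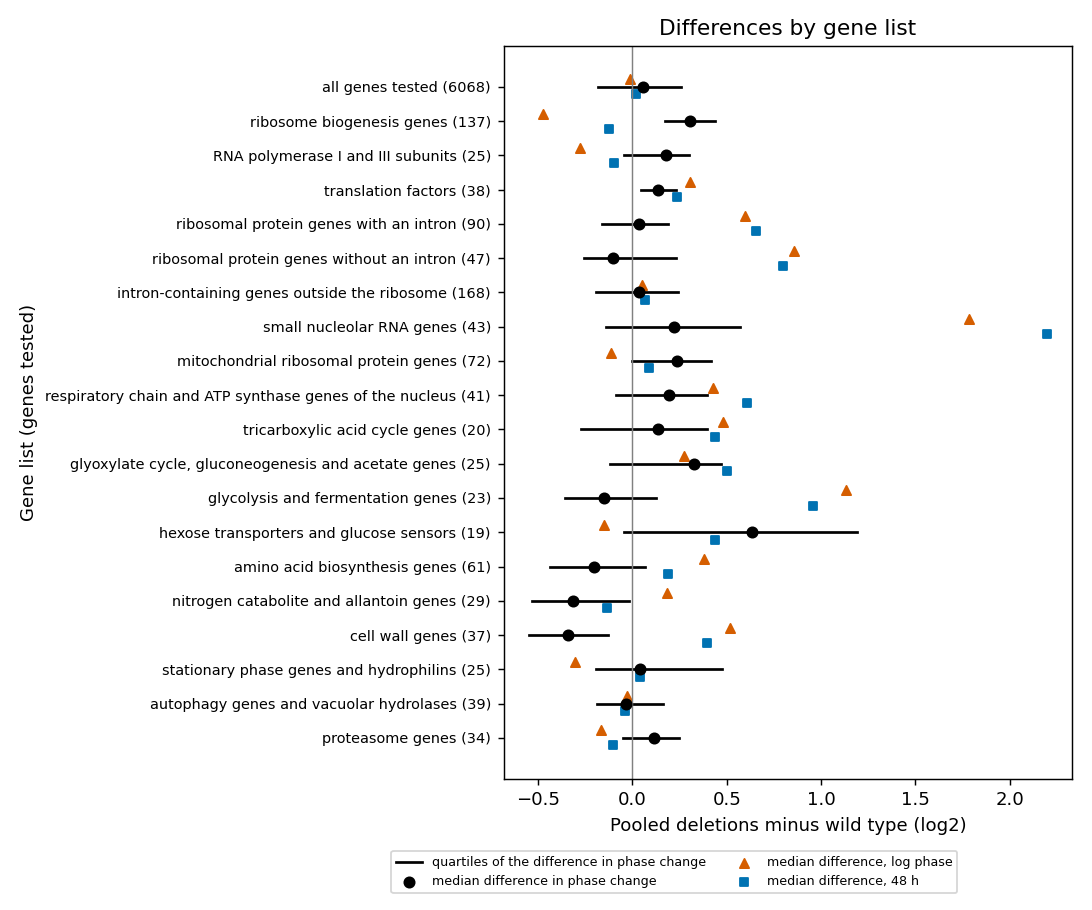
Median difference in phase change (circles, with quartiles as lines) for 20 groups of genes, with the median difference between deletions and wild type in log phase (triangles) and at 48 h (squares), all on the log2 scale. Ribosome biogenesis genes are at 0.30 with a log-phase median of -0.47 and a 48 h median of -0.13; small nucleolar RNA genes are far to the right in both phases and at 0.22 in the difference.

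Respiratory genes rose in both arms. Of 41 nuclear genes of the respiratory chain and ATP synthase 38 rose in the wild type and 41 in the deletions. The median difference was 0.20 with 4 higher (9.76%, beside 5.75% of all genes) and 0 lower. The small ATP synthase subunit gene ATP17 was at 94.4 and 109 CPM in wild-type log phase and 41.9 to 55.3 in the deletions, and at 145 and 101 against 78.4 to 151 at 48 h. Its phase change was 0.27 for wild-type strains (adjusted p = 0.265) and 1.09 for the deletions, where it passed. ATP19 and ATP3 were at 0.82 ± 0.24 and 0.73 ± 0.23, and none of the 3 differences passed (adjusted p = 0.607). Without the 48 h library of wild-type strain 2 ATP17 was at 0.51 and ATP19 at 0.49, and they were at 0.43 and 0.41 without that strain and at 1.17 and 1.16 without strain 1. The wild-type strains differed here: strain medians were 1.35 and 2.00, beside 1.56 to 2.15 in the deletions, and without wild-type strain 1 the list median was 0.01.

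Genes of the tricarboxylic acid cycle had a median of 0.13, and -0.07 without wild-type strain 1. In the full fit 4 of 20 were higher (20%, beside 5.75% of all genes) and 1 lower (5%, beside 2.29%). FUM1, the fumarase gene, and SDH2, a succinate dehydrogenase subunit gene, were at 0.70 ± 0.22 and 0.61 ± 0.20, and FUM1 was at 0.39 without wild-type strain 2. The 25 genes of the glyoxylate cycle, gluconeogenesis and acetate use, nearly silent on glucose, had a median of 0.33. Among them 5 were higher (20%, beside 5.75%) and 3 lower (12%, beside 2.29%). SIP4, an activator of gluconeogenic genes, went from 3.77 and 2.45 CPM to 160 and 185 in the wild type and from 2.03 to 3.12 to between 204 and 256 in the deletions, at 0.84 ± 0.27. It was at 0.47 without the log-phase library of wild-type strain 1 and at 0.38 without that strain. CRC1, the mitochondrial carnitine carrier, was at 1.59 ± 0.53 with under 1 CPM in every log-phase library, and at 1.02 without wild-type strain 1. The list median was 0.13 without wild-type strain 1.

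Of 19 tested hexose transporter and glucose sensor genes 2 were higher (10.5%, beside 5.75% of all genes) and 0 lower. The list had the highest median apart from mating genes, 0.64, and 0.39 without wild-type strain 1. The median was 0.07 over the 15 genes that remained when all libraries were thinned at random to the smallest total. HXT8, a rarely expressed transporter gene, was at 2.84 and 2.69 CPM in wild-type log phase and 0.75 to 1.39 in the deletions, and at 3.40 and 4.59 against 5.13 to 7.02 at 48 h. The groups were apart in both phases in opposite directions, and the difference was 1.92 ± 0.42 (adjusted p = 0.607). HXT5, the transporter of slow growth, rose from between 1.42 and 3.31 CPM to 621 and 870 in the wild type and 817 to 1174 in the deletions, and its changes per strain overlapped. The difference of HXT5, 0.78 ± 0.27, was 0.46 without wild-type strain 1 and 0.28 after thinning to the smallest total.

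Glycolytic genes had a median of -0.15 that was -0.50 without wild-type strain 1. ENO2, the main enolase on glucose, was at 1409 and 967 CPM in wild-type log phase and 3851 to 5854 in the deletions, and at 118 and 179 against 318 to 464 at 48 h. It was higher in the deletions in both phases (adjusted p of 0.00302 and 0.0132), and its difference in phase change was -0.68 ± 0.33 (adjusted p = 0.611). That value was -0.41 without the 48 h library of wild-type strain 2, -0.15 without that strain and -1.27 without wild-type strain 1. Genes of stationary phase had a list median of 0.04 (0.02 without wild-type strain 1), with 2 of 25 higher (8%, beside 5.75% of all genes) and 0 lower. The higher ones were NQM1 and the small heat shock protein gene HSP26, at 0.65 ± 0.26 and 0.67 ± 0.29. Autophagy genes and vacuolar hydrolases had a median of -0.03 (-0.12 without wild-type strain 1), and the kinase gene ATG1 was at -0.57 ± 0.19. Proteasome genes had a median of 0.11 (0.05 without wild-type strain 1). In the full fit 4 of 34 were higher (11.8%, beside 5.75%) and 0 lower.

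Nitrogen catabolite and allantoin genes had a median below that of all genes. They serve the use of poor nitrogen sources. The median of 29 genes was -0.31, with 9 lower (31%, beside 2.29% of all genes) and 3 higher (10.3%, beside 5.75%). DAL3, the ureidoglycolate lyase, was at 39.2 and 38.8 CPM in wild-type log phase and 42.4 to 59.5 in the deletions, and at 20.8 and 17.7 against 15.2 to 16.5 at 48 h. The deletions were above in log phase and below at 48 h, as for DUR12 and MEP2, with a difference of -0.73 ± 0.22 (adjusted p = 0.607). Leaving out wild-type strain 1 gave a median of -0.43.

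Amino acid biosynthesis genes had a median of -0.20, and -0.30 without wild-type strain 1. In the full fit 11 of 61 were lower (18%, beside 2.29% of all genes) and 2 higher (3.28%, beside 5.75%). GLT1, the glutamate synthase, rose by 0.72 in the wild type and was at -0.01 in the deletions (adjusted p = 0.971). Its level went from 1876 and 1999 to 2969 and 3408 CPM in the wild type and from 2875, 2494, 2627 and 2104 to 2498, 2187, 2762 and 2619 in the deletions. The wild-type change lay above all 4 deletion changes, at a difference of -0.72 ± 0.22 (adjusted p = 0.607). The tryptophan gene TRP3 was at -0.67 ± 0.20.

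Cell wall genes had the lowest median of the lists shown in the plot of gene lists, -0.34. Of 37 genes 3 were lower (8.11%, beside 2.29% of all genes) and 0 higher. PIR1 was described above. CTS1, the chitinase that parts mother and daughter, and CHS2, the chitin synthase of the septum, were at -0.67 ± 0.26 and -0.88 ± 0.38 (adjusted p of 0.607 and 0.609). Leaving out wild-type strain 1 gave a median of -0.59, and CTS1 was then at -0.38. AHP1, a peroxiredoxin gene outside this list, was at 150 and 92.7 CPM in wild-type log phase against 366 to 558 in the deletions, with changes of -0.09 and 1.43 in the wild type and -0.68 to -0.10 in the deletions, a difference of -1.09 ± 0.37. It was at -0.68 without the 48 h library of wild-type strain 2, -0.35 without that strain and -1.86 without strain 1.

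Small nucleolar RNAs differed in level far more than in phase change. Of 43 tested genes 33 were higher in the deletions in log phase (76.7%, beside 17.8% of all genes) and 36 at 48 h (83.7%, beside 8.80%), 0 lower in either, with medians of 1.78 and 2.20. Without wild-type strain 1 only 1 wild-type library is left at 48 h, so that fit cannot show whether the calls depend on this strain. Small nucleolar RNA took 4.64% and 5.77% of counts in wild-type strains 1 and 2 at 48 h, beside 9.38% to 11.6% in the deletions. The median difference in phase change was 0.22, and -0.38 without wild-type strain 1. In the full fit 3 were higher (6.98%, beside 5.75%) and 0 lower at an unadjusted p under 0.05. snR70, which guides methylation of ribosomal RNA, was at 3.37 and 2.51 CPM in wild-type log phase and 0.76 and 2.01 at 48 h, and at 2.56 to 7.56 and 7.31 to 13.7 in the deletions, a difference of 2.01 ± 0.53 (adjusted p = 0.607). The U4 RNA gene snR14 had the same order at 2.17 ± 0.72. Without wild-type strain 2 they were at 3.20 and 3.83, and snR14 was at 3.89 without that strain's 48 h library alone. The share of all counts that small nucleolar RNA took, given above, moved with both genotype and phase, and its part in these values was not tested.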

How the data were processed

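The deposited table gives whole-number read counts for 7126 genes in 12 RNA-seq libraries, and per the submitters' processing notes the authors used Bowtie2, HTSeq and DESeq2 with the sacCer3 assembly. Versions, filters and the strand setting of the counting are not given in the sources used here. Deposited FPKM values and the authors' own comparison tables were not used.

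The counts were fitted in edgeR 4.0.16 (R 4.3.3, limma 3.58.1) with its quasi-likelihood test, 6 groups of genotype and phase, filterByExpr, scaling factors by the trimmed mean of M-values (TMM) and Benjamini-Hochberg adjustment over 6068 genes. The common dispersion was 0.0279 with 6 residual degrees of freedom. The difference in phase change is 1 contrast of this fit, with 95% intervals from its F statistic. DESeq2 1.42.0 was an alternative, and the steps were tested on simulated data. Changes per strain are log2 of (CPM at 48 h + 1) over (CPM in log phase + 1), with 0.25 as the alternative to the 1 added. Python 3.11.15, pandas 2.3.3 and matplotlib 3.10.9 handled tables and figures, and sequences came from RefSeq R64.

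Genes were named by rule: 12 per direction with the smallest p, a mean of at least 10 CPM and no overlap between strains, where genes that missed the adjusted threshold filled the places, plus up to 3 per gene list and the genes discussed as targets. The gene lists, the rule and the comparison were chosen with earlier results of these data known. Each strain was harvested in both phases, which the labels give as the pairing. After removal of group means the deviations of a strain's log-phase and 48 h libraries had r of -0.164 for wild type, 0.0605 for mms2 and 0.0374 for ysf3 strains, and the fit with strain as a block is an alternative.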

Additional observations from a re-analysis of the deposited data

Results flagged for a closer look

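In 3 of 71 sets of 4 deletion libraries or strains, 1 value stood apart from the other 3 by Dixon's 95% criterion, and chance alone marks about 1 set in 20. The phase change of CUP9 was 1.253 in mms2 deletion strain 2, below the highest of the others at 1.631. The phase change of ADH3, a mitochondrial alcohol dehydrogenase gene, was -0.489 in the same strain, above the lowest of the others at -0.744. Mitochondrial ribosomal RNA took 0.2947% of counts in log phase in ysf3 deletion strain 2 and 0.00505% to 0.00542% in the other deletion strains.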

How the results depend on the processing

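The count of 0 genes for the difference in phase change became 1 with DESeq2 and ran from 0 to 6 when a library or strain was left out. It was 3 without the log-phase library of wild-type strain 2 (MF(ALPHA)2, SAG1 and STE6) and 6 without wild-type strain 2 in both phases, which added STE2, STE3 and MF(ALPHA)1, all mating genes. Genes at an unadjusted p under 0.05 numbered 185 to 831 over the left-out libraries and strains, beside 488, and 292 to 534 over the other settings. Higher genes made up 43.2% to 79.4% of them when a library or strain was left out, 55.8% with DESeq2, 56.6% without a filter, 65.1% with the block and 54.9% after thinning to the smallest total.

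With strain as a replicate block 0 genes passed for the difference in phase change, 4394 for the phase change in the pooled deletions and 3819 for the phase change in the wild type, and no call count moved by over 1.5 times except the unadjusted count of 292. A test against a fold of 1.5 left 3055 phase changes in the deletions. The comparison of mms2 and ysf3 deletions gave 2 genes with DESeq2. For pooled deletions minus wild type in log phase 966 genes passed at an adjusted p of 0.01 and 224 against a fold of 1.5, and 57 to 2350 over left-out libraries, with 231 without wild-type strain 2 and 1329 without mms2 strain 2. At 48 h these were 0 and 2, and 0 to 850, with 0 without wild-type strain 1, 76 without mms2 strain 2, 168 without ysf3 strain 1 and 198 without ysf3 strain 2.

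Directions reversed for 7 genes, none past the threshold in that setting. HSH155 was -0.058 without wild-type strain 2 (range over left-out libraries -0.058 to 0.52). YSF3 was 0.037 and 0.033 without wild-type strain 2 in log phase or in both, and 0.021 without the log-phase library of ysf3 strain 1 (-0.46 to 0.037), and 0.049 after thinning. The others are mating genes, which differ between the wild-type strains. Without wild-type strain 1 in log phase MF(ALPHA)1 was -1.52 (-1.52 to 11.23), STE3 -1.47 (-1.47 to 6.73), SAG1 -0.40 (-0.40 to 5.15, and -0.085 without the strain in both phases), STE2 0.70 and STE6 0.39. Without wild-type strain 2 at 48 h STE2 was 1.85 (-5.64 to 1.85) and STE6 0.25 (-4.86 to 0.39). The causes were not tested. All alternatives were planned at the start, and the smallest total, 4871513 counts, limits genes of low level such as YSF3.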
